A study of Mus musculus with 8 samples.

Results

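The guanylate-binding proteins (GBPs) described here are the 10 mouse genes Gbp2, Gbp3, Gbp4, Gbp5, Gbp6, Gbp7, Gbp8, Gbp9, Gbp10 and Gbp11, found by symbol among the 24506 genes of the deposited count table. The members were chosen by name, with measured values in view, above all the counts compared between sgStat5 and control cells, so their values in that comparison are given as a description. Where edgeR calls among them are counted there, the share of all genes called stands beside the count and nothing is read from it. RNA was sequenced in bulk from T-cell progenitors grown from bone marrow of mice on the B6 background that carry Cas9, a Bcl2 transgene and a Bcl11b-mCherry reporter, all of which every group shares. Retrovirus delivered either control guide RNAs, with a target that the labels do not name, or a pool of 3 guides against Stat5a with 3 guides against Stat5b (sgStat5). Co-culture for 6 days followed on OP9-DLL1 cells, mouse stroma engineered to present a ligand of Notch, and the medium held 10 ng/ml of IL-7 and 10 ng/ml of Flt3 ligand. Lineage-negative, infected, CD25-positive cells were sorted as mCherry-negative (pre-commitment, here the early gate) or mCherry-positive (post-commitment, here the late gate), which gave the 4 groups early control, early sgStat5, late control and late sgStat5, with 2 libraries each. The series text names the late cells mCherry-positive but also calls them reporter negative. Guides act on a sorted population and not on 1 clone, and the share of edited cells was not analysed here.

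GBPs are large GTPases of the dynamin superfamily that interferon-gamma induces strongly, through factors that bind the promoter elements known as GAS and ISRE, IRF1 among those of the latter. They assemble on the membranes of intracellular bacteria and on the vacuoles of parasites and help to open them to inflammasome sensors. Gbp2 and Gbp5 end in a signal for a lipid anchor that holds them on membranes. STAT5A and STAT5B, activated by IL-7 and related cytokines, also bind GAS-type elements.

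The 10 members lie in a pair of gene clusters, and the clusters differed in how their RNA varied. Per the file headers, on mm10, the chromosome 3 cluster holds Gbp5 (chr3:142496934-142522344), Gbp7 (chr3:142530336-142550151), Gbp3 (chr3:142560356-142573213) and Gbp2 (chr3:142620663-142638008), all on the plus strand. The chromosome 5 cluster holds Gbp8 (chr5:105014153-105053561), Gbp9 (chr5:105076466-105110292), Gbp4 (chr5:105115767-105139586), Gbp10 (chr5:105215699-105239533), Gbp6 (chr5:105270702-105293699) and Gbp11 (chr5:105323026-105346472), all on the minus strand. These spans run over exons and introns of 1 RefSeq transcript per gene, and the counts are of its exons. The clusters cover 141 kb and 332 kb, and no member's span overlaps another's. An 11th family row, Gbp2b, lies between Gbp3 and Gbp2 (chr3:142594847-142619176). It is not among the listed members and was low, at 7 to 164 counts per library.

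The promoters shown are those of the 4 chromosome 3 members, since the RefSeq promoter set had no entry for the chromosome 5 members. The letters of GAS and ISRE can be read in them. RefSeq promoters (build GRCm38.p6, plus strand, 250 bases before to 50 after the start) matched 4 of the 10 members. Capitals mark matches to an ISRE core, which is GAAA followed by any 2 bases and GAAA, and to GAS letters, which are TTC, a spacer of any 3 or 4 bases, and GAA. Both strands were searched, so an ISRE core can read TTTC on either side of the 2 bases. Gbp3 has a RefSeq start that equals the start in the count table and another start upstream of it, and both windows are shown.
Gbp2, chr3:142620413-142620712: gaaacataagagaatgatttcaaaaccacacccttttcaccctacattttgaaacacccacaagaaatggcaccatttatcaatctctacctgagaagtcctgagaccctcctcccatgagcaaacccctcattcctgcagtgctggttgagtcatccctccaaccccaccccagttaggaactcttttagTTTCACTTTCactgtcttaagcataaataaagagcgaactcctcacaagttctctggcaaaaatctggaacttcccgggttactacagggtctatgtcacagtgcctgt
Gbp5, chr3:142496684-142496983: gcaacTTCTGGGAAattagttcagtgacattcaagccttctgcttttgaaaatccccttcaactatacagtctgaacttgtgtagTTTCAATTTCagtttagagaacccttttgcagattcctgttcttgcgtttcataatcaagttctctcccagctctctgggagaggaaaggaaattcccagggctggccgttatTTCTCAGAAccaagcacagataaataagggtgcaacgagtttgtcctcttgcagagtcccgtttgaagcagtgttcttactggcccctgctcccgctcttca
Gbp7, chr3:142530086-142530385: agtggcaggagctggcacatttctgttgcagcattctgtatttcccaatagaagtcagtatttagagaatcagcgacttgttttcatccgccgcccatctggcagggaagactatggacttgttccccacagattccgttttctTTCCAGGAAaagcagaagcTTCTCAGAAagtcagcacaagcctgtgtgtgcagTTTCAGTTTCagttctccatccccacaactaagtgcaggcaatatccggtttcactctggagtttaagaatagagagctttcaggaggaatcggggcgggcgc
Gbp3, upstream start, chr3:142559794-142560093: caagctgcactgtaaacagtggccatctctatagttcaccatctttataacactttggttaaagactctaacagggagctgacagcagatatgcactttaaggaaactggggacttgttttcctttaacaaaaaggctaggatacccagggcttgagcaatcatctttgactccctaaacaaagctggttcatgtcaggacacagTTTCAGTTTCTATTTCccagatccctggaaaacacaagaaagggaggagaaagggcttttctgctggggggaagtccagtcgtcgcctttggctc
Gbp3, start of the count table, chr3:142560106-142560405: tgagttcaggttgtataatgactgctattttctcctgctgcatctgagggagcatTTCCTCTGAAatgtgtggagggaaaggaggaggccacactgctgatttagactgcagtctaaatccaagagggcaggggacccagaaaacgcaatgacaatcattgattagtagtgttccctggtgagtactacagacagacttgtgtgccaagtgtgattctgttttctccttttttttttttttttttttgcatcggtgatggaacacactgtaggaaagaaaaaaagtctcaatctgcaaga

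The Gbp2 window held 1 ISRE core, from 59 to 50 bases before the start (positions -59 to -50). Gbp7 held an ISRE core at -53 to -44 and 2 GAS matches at -106 to -98 and -87 to -79. Gbp5 held an ISRE core at -165 to -156 and 2 GAS matches at -245 to -237 and -52 to -44. The upstream Gbp3 window held 2 overlapping ISRE cores between -45 and -30, and the window at the start used in the count table held a GAS match with a 4-base spacer at -195 to -186. Of 32851 promoters of the same length in the RefSeq table, 3.44% held an ISRE core, 8.3% a GAS match with a 3-base spacer, 6.95% one with a 4-base spacer, and 0.706% an ISRE core together with a GAS match. A match is a string of letters, and no binding was measured here.

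All 10 members passed the filter on low counts. Total counts per library ran from 22146490 to 31209177, and the lowest member count in any library was 289 (Gbp11). Counting error was not small beside the spread between libraries in every group. Gbp2 in late control stood at 42.4 and 42.9 CPM from 1107 and 1330 counts. Values below are CPM, the count of a gene scaled by library size with TMM, means with SD have n = 2, and whether replicates came from separate animals or cultures is not in the labels. The labelled manipulation was visible in the targets' RNA. Stat5a stood at 238 to 258 CPM in the 4 control libraries and at 105 to 116 in the 4 sgStat5 libraries, and Stat5b at 249 to 279.8 against 133 to 154. The replicate numbers marked different material in every group, since Xist was at 0 to 0.359 CPM in the 4 libraries numbered 1 and at 1388 to 2345 CPM in those numbered 2. Summed markers of T-cell progenitors were at 5059 to 8868 CPM in all libraries. Of this sum, 1374 to 3152 CPM were Il2ra, the gene of CD25, on which every library was sorted. Other lists were lower, with 12 stromal genes at 113 to 603 CPM in sum and higher in replicate 2 of every group, 16 myeloid genes at 133 to 466, 12 NK and innate lymphoid genes at 314 to 748, 10 genes of mast cells, basophils, megakaryocytes and erythroid cells at 309 to 991, and 10 B-cell genes at 7.40 to 17.9. Among the stromal genes, Fn1, Cxcl12, Col1a2 and Col1a1 reached 136, 95.1, 92.8 and 82.96 CPM, while Dcn was at 0 in 7 of 8 libraries. Pdgfrb stood at 69.4 to 110 CPM and, unlike the sum, was higher in replicate 1 of every group. In early sgStat5 replicate 1, where the stromal sum was 113 CPM, Pdgfrb held 110 and Fn1 and Col1a1 held 0. Among the myeloid genes, Ccr2 and Mpo reached 366 and 55.8 CPM, while Siglech, a defining marker of plasmacytoid dendritic cells, was at most 0.135. The part of other cells in the sgStat5 differences was not tested.

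**Figure D1:**
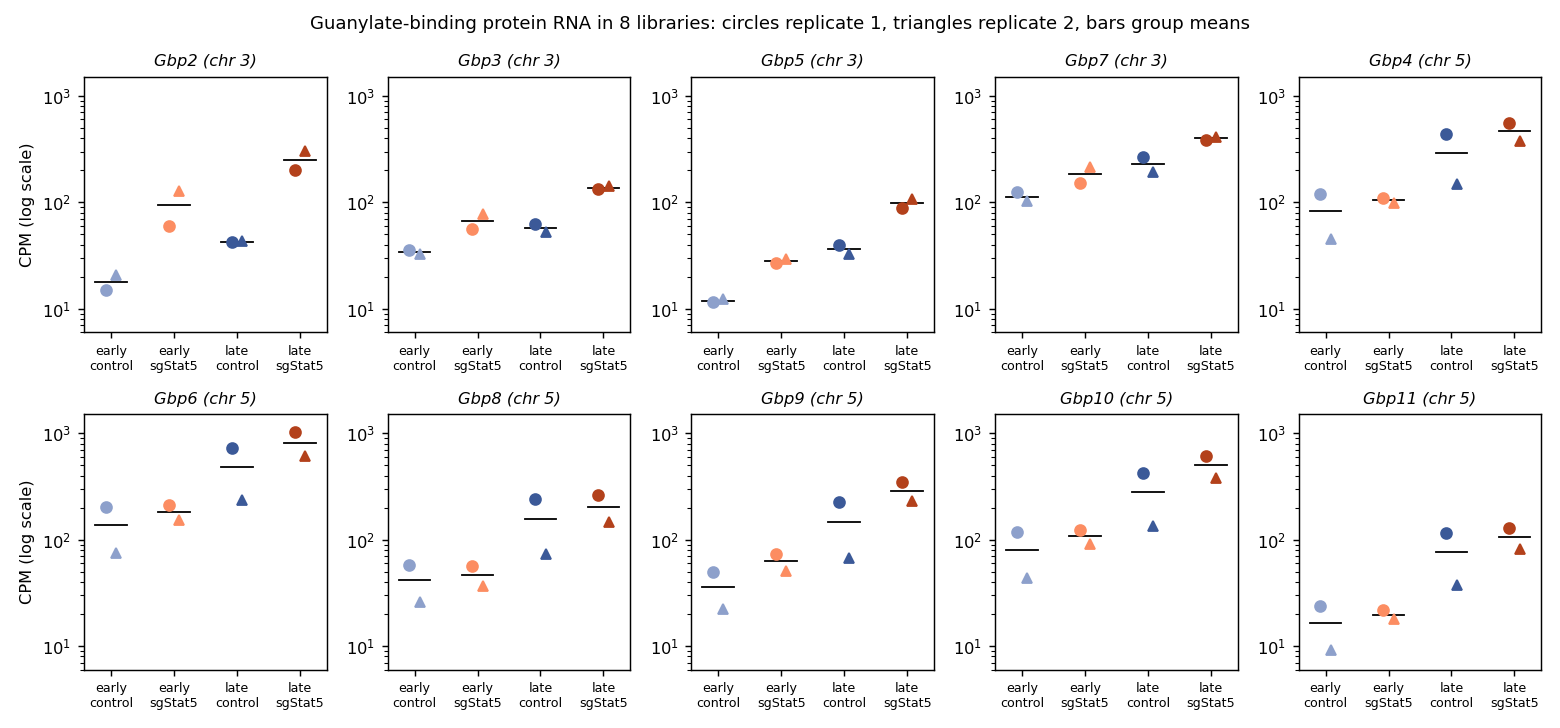
RNA of the 10 members in each library, in CPM on a log axis, by group (circles, replicate 1; triangles, replicate 2; bars, group means, n = 2). The 4 chromosome 3 members lie higher in both sgStat5 libraries than in both control libraries of the same gate, while the 6 chromosome 5 members lie higher in replicate 1 than in replicate 2 of every group.

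Among chromosome 3 members, Gbp2, which helps inflammasome sensing of bacteria that enter the cytosol, had the widest range as a fold. Early control libraries held 14.9 and 20.8 CPM against 59.8 and 129 with sgStat5, and late control libraries held 42.4 and 42.9 against 199 and 301. All 4 sgStat5 libraries were above all 4 control libraries. Its log2 difference of sgStat5 from control was 2.401 (SE 0.38) in the early gate and 2.55 (SE 0.38) in the late gate.

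Gbp5, which has been linked to NLRP3 inflammasome assembly, was the lowest of the chromosome 3 members per length and had the smallest SE. It stood at 11.5 and 12.4 CPM in control against 26.9 and 29.3 with sgStat5 in the early gate, and 39.7 and 32.5 against 88.8 and 107 in the late gate. The 4 groups did not overlap, and late control lay above early sgStat5. Its log2 difference of sgStat5 from control was 1.24 (SE 0.16) early and 1.44 (SE 0.16) late.

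Gbp3 stood at 35.5 and 32.8 CPM in control against 56.4 and 77.5 with sgStat5 in the early gate, and 62.0 and 52.9 against 132 and 143 in the late gate. Early sgStat5 and late control overlapped, and late sgStat5 was above all other libraries. The log2 differences of sgStat5 from control were 0.97 (SE 0.17) early and 1.26 (SE 0.17) late. Gbp7, one of the members needed for defence of macrophages against Listeria and mycobacteria, had the smallest log2 difference of the 4 in both gates. It stood at 124 and 102 CPM in control against 151 and 215 with sgStat5 in the early gate, and 265 and 192 against 388 and 412 in the late gate, with log2 differences of 0.69 (SE 0.21) and 0.81 (SE 0.21). Each gate's sgStat5 libraries lay above its control libraries, as in the other 3 members. The unlisted neighbour Gbp2b showed the same order at a far lower level, with 0.276 and 0.418 CPM in control against 1.62 and 1.96 with sgStat5 in the early gate, and 1.03 and 1.19 against 3.58 and 5.88 in the late gate.

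The chromosome 5 members differed most between gates and between replicate numbers. Gbp6, needed with Gbp10 for the same defence in macrophages, was the highest member per length in every group. It stood at 201 and 74.7 CPM in control against 212 and 155 with sgStat5 in the early gate, and 720.04 and 235 against 1024 and 613 in the late gate. In both gates the sgStat5 libraries overlapped the control libraries, and control replicate 1 was 2.68 to 3.06 times control replicate 2. Gbp10 ran alongside it at 117 and 43.6 CPM in control against 123 and 91.5 with sgStat5 in the early gate, and 423 and 136 against 617 and 382 in the late gate.

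Gbp4, linked to restraint of IRF7, stood at 119 and 45.4 CPM in control against 110.5 and 98.9 with sgStat5 in the early gate, and 439 and 148 against 559.9 and 373 in the late gate. In the early gate its replicate 1 was lower with sgStat5 and its replicate 2 higher. Gbp8 stood at 57.2 and 25.9 CPM in control against 56.3 and 36.9 with sgStat5 in the early gate, and 241 and 72.8 against 262 and 146 in the late gate. Gbp11 stood at 23.97 and 9.29 in control against 21.6 and 18.0 with sgStat5 in the early gate, and 114 and 37.3 against 129 and 81.8 in the late gate. These 3 members overlapped between guides in both gates. Gbp9 was the one chromosome 5 member whose sgStat5 libraries lay above the control libraries of the gate, with 49.3 and 22.5 CPM against 73.9 and 51.0 early, and 224 and 67.5 against 346 and 231 late.

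Summed over each cluster, which does not depend on how reads were split between near copies of 1 cluster, chromosome 3 held 186 and 168 CPM in control against 294 and 451 with sgStat5 in the early gate, and 409 and 321 against 808 and 963 in the late gate. Chromosome 5 sums were 567 and 221 CPM in control against 597 and 451 with sgStat5 in the early gate, and 2162 and 696 against 2938 and 1828 in the late gate. The sum of chromosome 5 over that of chromosome 3 ran from 1.0004 to 5.28 and was higher in replicate 1 than in replicate 2 of every group. Bcl11b, the gene of the sorted reporter and a factor of T-lineage commitment, had a like spread between replicates. It stood at 132 and 45.6 CPM in control against 132 and 70.1 with sgStat5 in the early gate, and 542 and 219 against 797 and 415 in the late gate. Across the 8 libraries, which share gates and replicate numbers, the mean log2 profile of chromosome 5 members had r = 0.99 with Bcl11b and that of chromosome 3 members r = 0.69. With Irf1, the order was the other way, at r = 0.63 and r = 0.95. In bulk RNA, a different share of expressing cells and a different amount of RNA per cell cannot be told apart.

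**Figure D2:**
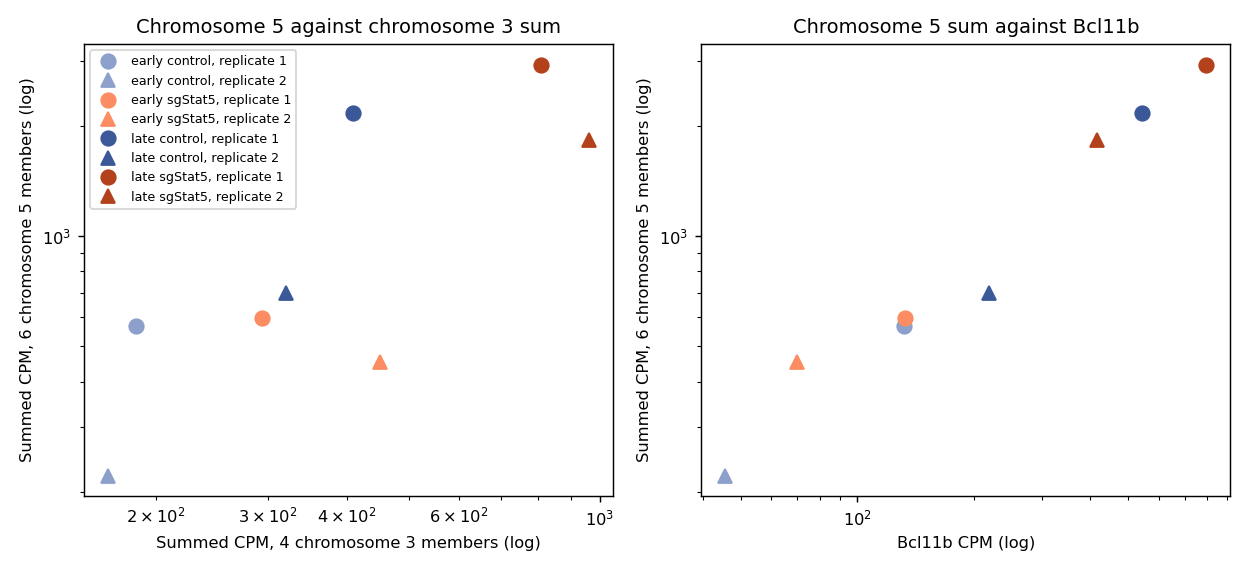
Summed CPM of the 6 chromosome 5 members against the sum of the 4 chromosome 3 members (left) and against Bcl11b (right), 1 point per library on log axes. On the left, replicate 2 (triangles) lies below replicate 1 (circles) in every group, and on the right the 8 libraries follow 1 course from 45.6 to 797 CPM of Bcl11b.

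In the early gate, the log2 difference of sgStat5 from control was above 0 in the group means of all 10 members, with a median of 1.10 for chromosome 3 and 0.38 for chromosome 5, against -0.00012 over all 13775 genes tested. Chromosome 5 values ran from 0.17 (Gbp8) to 0.80 (Gbp9), with SE of 0.57 to 0.61. A gene was called where edgeR's quasi-likelihood test gave a Benjamini-Hochberg adjusted p under 0.05 over all genes tested. Gbp5 alone was called, where 0.123% of all genes tested were called higher. With the replicate number as a block, Gbp2, Gbp3 and Gbp5 were called, where 1% of genes were called higher. The sgStat5 libraries lay wholly above the control libraries for 5 members, namely the chromosome 3 members and Gbp9, and for 18.7% of all genes. As the members were listed with this comparison known, nothing is read from these counts. With the replicate block the medians were 1.10 for chromosome 3 and 0.55 for chromosome 5. The distance between the clusters without the block varied with the library left out. Such a fit sets 1 replicate number of a guide against both numbers of the other. Without early control replicate 2 the chromosome 5 median was -0.15, with 5 of its 6 members below 0, against 1.11 for chromosome 3. Without early control replicate 1 it was 1.24, above the 1.096 of chromosome 3, and without early sgStat5 replicate 1 it was 0.18. Gbp5 was not called in any fit that left out 1 of the 8 libraries.

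In the late gate, the median log2 difference of sgStat5 from control was 1.35 for chromosome 3 and 0.72 for chromosome 5, against -0.02 over all genes tested. Chromosome 5 values ran from 0.38 (Gbp8) to 0.98 (Gbp9), with SE of 0.57 to 0.61. Gbp2, Gbp3 and Gbp5 were called, where 0.755% of all genes were called higher, and with the replicate block Gbp6, Gbp7, Gbp9 and Gbp10 as well, where 3.72% were. The groups did not overlap for the same 5 members as in the early gate, and for 18.1% of all genes. Without any 1 of the late control or late sgStat5 libraries, 1 member was called instead of 3, and as in the early gate nothing is read from these counts. With the replicate block the medians were 1.35 for chromosome 3 and 0.87 for chromosome 5. The order of the clusters without the block again varied with the library left out. The chromosome 5 median was 0.15 without late control replicate 2, 0.35 without late sgStat5 replicate 1, and 1.71 without late control replicate 1, the last above the 1.47 of chromosome 3.

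The same comparison was made within replicate pairs. The log2 difference of sgStat5 from control was above 0 in all 4 pairs of the same gate and number for 7 members, the 4 of chromosome 3 with Gbp6, Gbp9 and Gbp10, and for 16.5% of all genes tested. For chromosome 5 it was -0.15 to 0.58 in the early pair numbered 1 and 0.50 to 1.17 in the pair numbered 2, and in the late gate 0.12 to 0.62 and 1.002 to 1.77. For chromosome 3 it was 0.27 to 1.97 and 1.07 to 2.60 early, and 0.55 to 2.22 and 1.10 to 2.80 late. All 10 members had the larger difference in the pair numbered 2 in both gates, as had 28.1% of all genes. Replicate 1 was above replicate 2 in all 4 groups for all 6 chromosome 5 members and for no chromosome 3 member, and for 19.3% of all genes. For chromosome 5, replicate 1 was 2.17 to 3.31 times replicate 2 with control guides and 1.12 to 1.79 times with sgStat5.

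**Figure D3:**
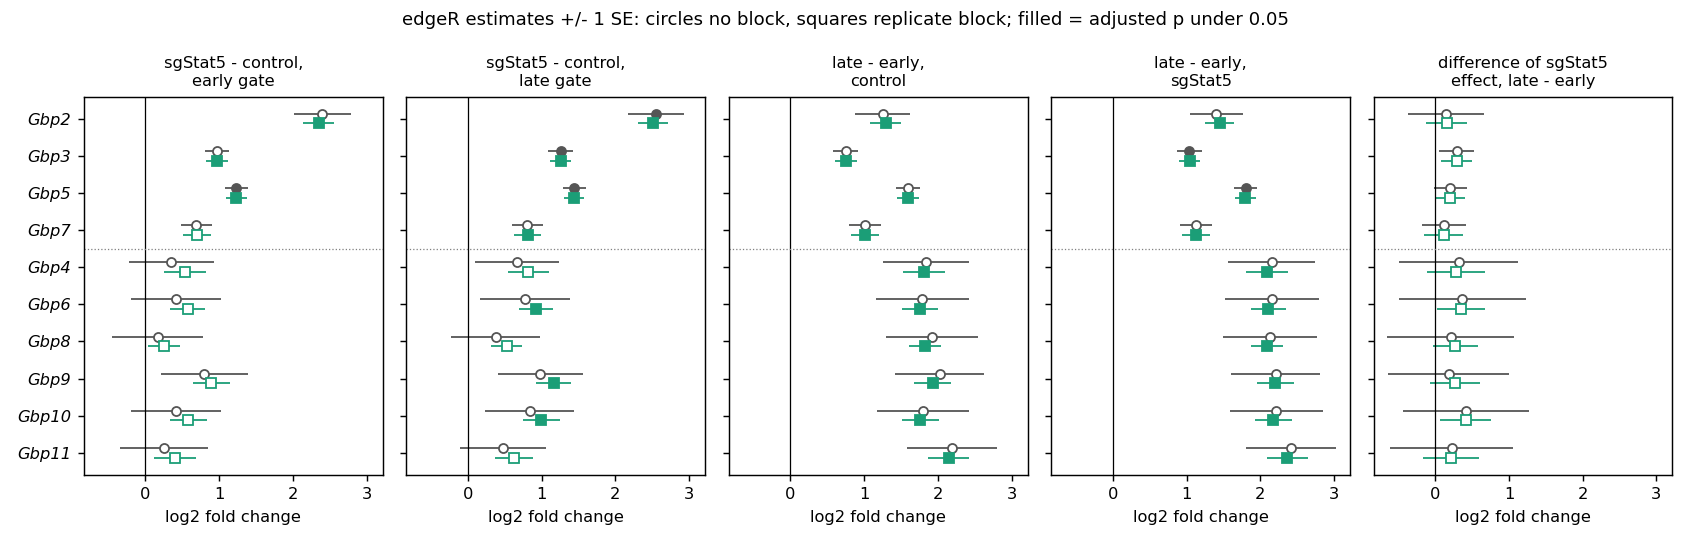
Log2 fold changes with 1 SE for each member in the 5 comparisons, from edgeR without (circles) and with (squares) the replicate block, filled where the adjusted p was under 0.05, which in the sgStat5 panels is a description. In the 2 panels of late against early gate the 6 chromosome 5 members (below the dotted line) lie at 1.76 to 2.42. They lie above every chromosome 3 member of the same panel. In the 2 sgStat5 panels Gbp2 lies farthest right.

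All members were more abundant in the late than in the early gate, with either guide. In control cells, the log2 difference of late from early ran from 0.75 (Gbp3, SE 0.17) to 2.19 (Gbp11, SE 0.61), with a median of 1.795 over the members and 0.03 over all genes tested. The chromosome 5 median was 1.88 and that of chromosome 3 1.13. Without late control replicate 1 the former was 0.85, below the 1.03 of chromosome 3, and without early control replicate 1 and late control replicate 2 in turn it was 2.66 and 2.46. Late libraries lay wholly above early libraries for all 10 members, and for 24.6% of all genes. Without the replicate block, edgeR's quasi-likelihood test called 0 of the 10, with Benjamini-Hochberg adjusted p of 0.0829 (Gbp5) to 0.281 (Gbp6), where 0.0145% of genes were called higher. At an unadjusted p under 0.05 it held all 10 members and 14.9% of genes, and DESeq2 called 5 members and 2.74% of genes higher. With the block, edgeR called 10 of 10 as higher, where 6.64% of genes were, with adjusted p of 0.00099 (Gbp5) to 0.0167 (Gbp3).

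Genes listed as markers of other cells also differed between the gates. In control libraries, summed NK and innate lymphoid genes were at 658 and 748 CPM early against 314 and 450 late, those of mast cells, basophils, megakaryocytes and erythroid cells at 853 and 587 against 325 and 309, and myeloid genes at 274 and 265 against 133 and 175. Stromal genes were at 146 and 366 CPM early against 234 and 603 late, and Pdgfrb held 105 of the 146. A few genes carried most of the other sums. In early control replicate 1, Cpa3 and Itga2b held 639 and 191 CPM, Gzmb and Nkg7 316 and 120, and Ccr2 220. Gata3, also on the T-progenitor list, held 136. Zbtb16, Id2, Mpo and Mcpt8 held 51.7, 29.2, 21.7 and 20.9 CPM there. Ncr1 was at 0.630, and Klrb1c, Ms4a2 and Fcer1a were at 0. With the block, edgeR called 3 of 10 tested NK, 3 of 5 mast and related, and 4 of 12 myeloid genes lower in late control cells, where 4.3% of all genes were. There 1 myeloid gene (Ly6c2) was called higher, as were 6.64% of all genes. In sgStat5 cells these counts of lower genes were 3, 2 and 4, where 11.5% of all genes were. Of the stromal genes there, 3 of 10 (Pdgfra, Cxcl12 and Sparc) were called higher, where 11.3% of all genes were. The part of other cells in the members' difference between gates was not tested.

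In sgStat5 cells, the log2 difference of late from early ran from 1.04 (Gbp3, SE 0.17) to 2.42 (Gbp11, SE 0.62), with a median of 2.14 against 0.03 over all genes tested. The groups did not overlap for any of the 10 members, and for 28.1% of all genes that were higher. Gbp3 and Gbp5 rose in edgeR's test without the block (adjusted p = 0.0486 and 0.0319), where 0.661% of genes were called higher, and the other 8 had adjusted p of 0.0600 (Gbp7) to 0.113 (Gbp8). With the block all 10 were called, where 11.3% of genes were called higher, with adjusted p of 0.000174 (Gbp5) to 0.00422 (Gbp7). The count of members called without the block varied with the library left out, as did the share of all genes called. In those fits every member stayed above 0, with medians of 0.93 to 1.63 for chromosome 3 and 1.84 to 2.49 for chromosome 5. Late exceeded early for all 10 members in every 1 of the 4 pairs matched by guide and number, and for 27% of all genes.

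Whether the sgStat5 difference itself changed between gates was tested as an interaction. It was larger in the late gate by 0.12 (Gbp7, SE 0.30) to 0.42 (Gbp10, SE 0.86) on the log2 scale, and 0 of the 10 members passed edgeR's test with or without the block, as did 0% of genes. At an unadjusted p under 0.05, 0 members and 302 of 13775 genes (2.19%) passed, and DESeq2 called 0 members and 2 genes. For Gbp5, the member with the smallest SE, the difference was 0.21 (SE 0.22). The SE of chromosome 5 members were 0.80 to 0.86 without the block and 0.300 to 0.393 with it, where their differences were 0.22 to 0.42.

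Levels were compared between members as deposited FPKM, which divide by transcript length. In early control Gbp6 was highest at 22.8 ± 14.3 FPKM (SD, n = 2), followed by Gbp10 (16.2 ± 10.2), Gbp7 (14.5 ± 1.66), Gbp4 (12.9 ± 7.90), Gbp8 (12.1 ± 6.20), Gbp3 (8.94 ± 0.225), Gbp2 (5.24 ± 1.35), Gbp9 (4.60 ± 2.34), Gbp11 (4.38 ± 2.65) and Gbp5 (2.84 ± 0.215). Of the 9 neighbours in that order, only Gbp3 and Gbp2 did not overlap between libraries. In late sgStat5 Gbp6 was highest at 141 ± 51.3 FPKM, and Gbp5 lowest at 24.2 ± 3.03. There 2 of 9 neighbours did not overlap, Gbp7 above Gbp9 and Gbp3 above Gbp11. Gbp2 moved most in the order, from rank 7 in early control to 2 in early sgStat5, and from rank 9 in late control to 4 in late sgStat5. Counts scaled per kilobase from the count table gave the same ranks, which is no separate check, since the FPKM come from the same program. Gbp5 was lowest in 3 groups and Gbp11 in early sgStat5.

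Reads can be shared among near copies, and how the authors treated reads that map to several places is not stated in the labels or headers. In the GENCODE M21 transcript nearest in length to that of the count table, 40.4% of the 50-base windows of Gbp6 and 47.8% of those of Gbp10 occurred in another member, most of them in each other (35.6% and 42.9%). For Gbp6 and Gbp9 that transcript is annotated as having a retained intron. Shares were 21.2% for Gbp8, 19.2% for Gbp11, 12.1% for Gbp4 and 6.51% for Gbp9. On chromosome 3 they were at most 4.79% (Gbp3, with Gbp7), and 0% for Gbp5. The count of Gbp6 was 1.60 to 1.73 times that of Gbp10 in every library. A steady ratio was not particular to shared sequence, since Gbp4, with 3.43% of its windows in Gbp10, had 0.898 to 1.09 times its count. Given the windows that Gbp6 and Gbp10 share, values of this pair may not be independent. Their sum, which does not depend on the split between them, differed between sgStat5 and control by 0.07 and 1.06 on the log2 scale in the early pairs numbered 1 and 2 and by 0.52 and 1.42 in the late pairs. Between gates it differed by 1.84 and 1.65 in control and by 2.29 and 2.02 in sgStat5 cells.

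**Figure D4:**
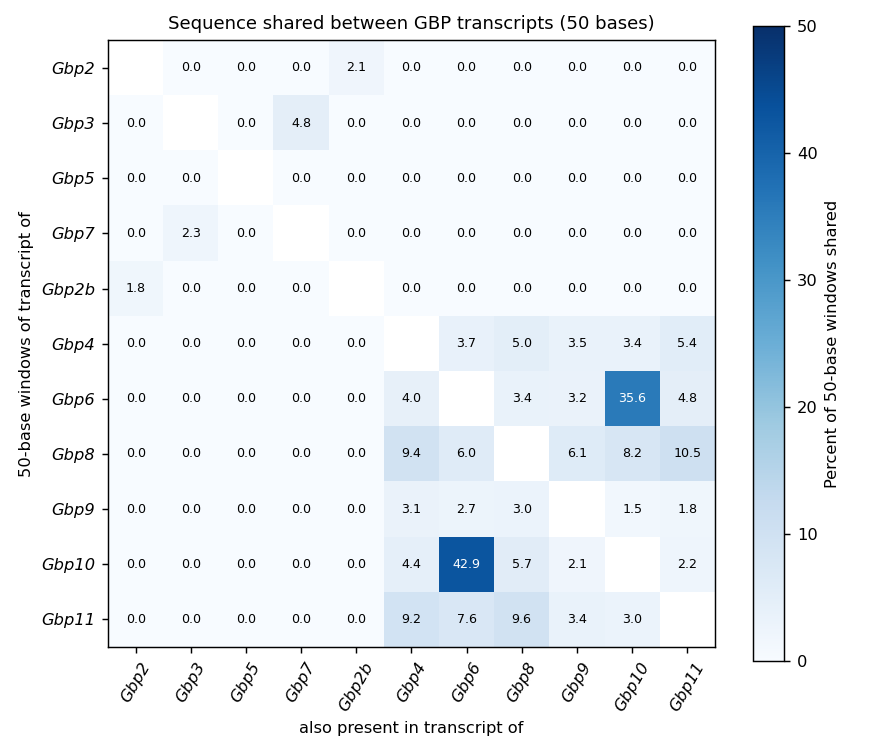
Percent of the 50-base windows of each member's transcript (rows) that also occur in another's (columns), with Gbp2b included. Gbp6 and Gbp10 share 35.6% and 42.9% with each other, and windows shared between chromosome 3 and chromosome 5 genes round to 0.0%.

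Genes around the clusters showed whether the pattern ran past them. Of 12 neighbours, the 3 nearest tested genes on each side of each cluster, Lrrc8c alone was called for sgStat5 against control. Lrrc8c, a subunit of volume-regulated anion channels 173 kb from the chromosome 5 cluster, fell by 0.83 on the log2 scale in the late gate (adjusted p = 0.0149, edgeR). In the early gate it differed by -0.68, with an adjusted p of 0.0826 without and 0.00857 with the block. The nearest gene to that cluster, Abcg3, lies 31.4 kb away and differed by 0.46 and 0.12 between guides in the early and late gates. Between gates in control cells Abcg3 differed by 1.49 (adjusted p = 0.258 without and 0.0218 with the block, edgeR). That is in the same direction as the cluster's members but below all of them, which lay at 1.79 to 2.19. Beside the chromosome 3 cluster, Pdlim5 (101 kb away) and Kyat3 (63.0 kb away) differed between guides in the late gate by -0.38 and -0.25, where all 4 members were above 0.8. Between gates Pdlim5 differed by 0.83 in control cells (adjusted p = 0.237 without and 0.0295 with the block, edgeR), within the range of the members there, and by 0.87 with sgStat5 (adjusted p = 0.0933 and 0.01298), below all 10 members.

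**Figure D5:**
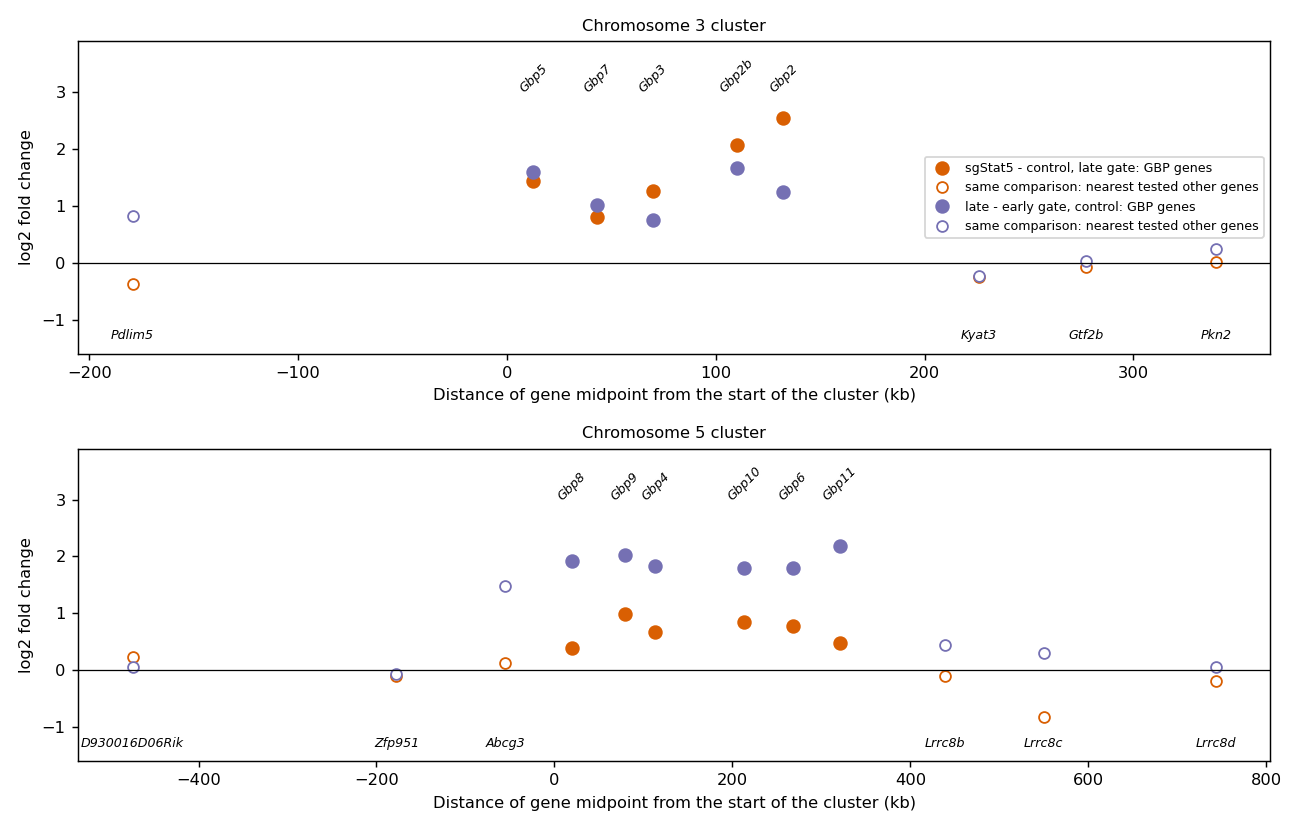
Log2 fold changes without the block along each cluster, by distance of the gene midpoint from the cluster's start in kb, for sgStat5 against control in the late gate (orange) and late against early in control cells (purple); filled points are GBP genes, open points other tested genes, and Rap1gds1 and Tspan5, which lie far from the chromosome 3 cluster, are left out. On chromosome 5 the late-against-early values lie above the sgStat5 values for all 6 members.

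Other parts of the interferon response were described from lists drawn up with earlier results of these data known. Of 13 tested interferon-inducible GTPases outside the GBPs, 5 were called higher with sgStat5 in the early gate and 6 in the late gate by edgeR without the block, and 0 lower. They were Irgm1, Ifi47, Tgtp1, Tgtp2 and Gvin1, with Irgm2 added in the late gate, and the list's median was 1.24 early and 1.43 late on the log2 scale. Tgtp1, which attacks parasite vacuoles, held 125 and 141 CPM with control guides against 348 and 472 with sgStat5 in the early gate, and 268 and 260.1 against 917 and 933 in the late gate. With the block, 8 and 10 of the 13 were called higher. All genes tested were called higher in 0.123% and 0.755% without the block and in 1% and 3.72% with it.

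Among 16 genes of interferon receptors and signalling, Irf1 was called higher with sgStat5 in the early gate, and those called higher in the late gate included Irf1, Irf8 and Usp18, by edgeR without the block. Of all genes, 0.123% and 0.755% were called higher there in the early and late gates. With the block, 5 were called higher and 2 lower early, beside 1% and 1.33% of all genes. In the late gate 9 were called higher and 1 lower, beside 3.72% and 4.49%. Ifngr1, a chain of the interferon-gamma receptor, went the other way, by -0.69 (SE 0.19) and -0.87 (SE 0.19), and was called lower in both gates with the block alone (adjusted p = 0.0378 and 0.00470, edgeR). Among the ligands, 6 of 9 genes were at 0 in every library, and the sum of all 9 was at most 1.38 CPM.

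Of 9 tested inflammasome partners, Casp1, Casp4 and Zbp1 were called higher with sgStat5 in the late gate and 0 in the early gate by edgeR without the block, where 4 were higher in the early gate at an unadjusted p under 0.05 and 2 in DESeq2. With the block, Casp1, Gsdmd and Zbp1 were called higher and Nlrp3 lower in the early gate, and Casp1, Casp4, Gsdmd and Zbp1 higher in the late gate. With the block 1.33% and 4.49% of all genes were called lower in the early and late gates, and 1% and 3.72% higher. Without the block 0.123% and 0.755% were called higher. Casp4, the sensor of cytosolic lipopolysaccharide, differed by 1.90 (SE 0.34) on the log2 scale in the late gate. Of 16 type I interferon-stimulated genes, 0 were called without the block in either gate, and 8 and 12 were called higher with it, with early and late medians of 1.21 and 1.34. At an unadjusted p under 0.05, 10 of these genes were higher early and 8 late, as were 2.92% and 5.2% of all genes. DESeq2 called 4 and 6 higher, and 0.748% and 2.11% of all genes. Machinery that acts on GBPs showed no calls without the block, with 0 of 5 prenylation enzymes and 0 of 9 genes of ATG conjugation in either gate, and with it 2 of the latter were called lower in the late gate (Atg7 and Gabarapl1). At an unadjusted p under 0.05, and likewise in DESeq2, 0 of the former and 1 of the latter passed, in the late gate. Of the related atlastins, 0 of 2 passed by any of these.

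By likeness across the 8 libraries among 13764 other tested genes, the mean profile of all 10 members was closest to Cdc42ep3 (r = 0.995), Fam208a (0.994), Dgka (0.993), Hivep2 (0.989) and Spata13 (0.984). The 5 genes closest to the chromosome 3 profile included Ifi47 (0.988), Tgtp1 (0.982), Abtb2 (0.979) and Tgtp2 (0.979). Those closest to the chromosome 5 profile included Dennd2d (0.994), Notch3 (0.994), Pan3 (0.993) and Nwd1 (0.991). The profiles by chromosome were formed after the members' values had been seen. At r above 0.9 there were 568, 185 and 716 genes, so a high r over libraries that share gates and replicate numbers was common. Between members, r was 0.87 to 0.97 within chromosome 3, 0.97 to 0.9997 within chromosome 5 and 0.49 to 0.92 across them.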

How the data were processed

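The mm10 genome and the tools STAR 2.4.0, RSEM 1.2.25 and bcl2fastq 1.8.4 are named, without roles, in the submitters' processing notes. Per the file headers, the authors' deposited counts were made with HOMER as unadjusted tags on exons, with 1 RefSeq transcript standing for a gene, and a deposited table gives FPKM from the same program. The library kit, per the labels, keeps no strand. For 8 of 10 members both tables use the same transcript.

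The main test on counts was that of edgeR 4.0.16, run in R 4.3.3 (filterByExpr, 13775 genes; TMM; quasi-likelihood F-test over all 8 libraries, 1 mean per group, two-sided, Benjamini-Hochberg over all genes tested, threshold 0.05). The SE is the absolute log2 fold change over the square root of F. Pair differences used log2(CPM + 0.5), and limma 3.58.1 was run on log2(FPKM + 1). Alternatives were other size factors, DESeq2 1.42.0, other filters, the replicate block, FPKM, and each library left out.

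Replicate numbers recur in every group. Replicate 1's deviations from group means were correlated, over genes, between groups (6 coefficients, 0.421 to 0.578), and the second principal component (31.1% of variance) separated the numbers, so the number was also fitted as a block and its calls stand beside the others. Members, lists and comparisons were chosen with earlier results of these data known. A p-value here reflects how far these libraries spread, and the labels do not say what a replicate was. All 10 members are named, of each other list those past the threshold, the 3 nearest tested genes on each side of a cluster, and the 5 genes of highest r; further list genes (Tgtp1, Casp4, Ifngr1) were given values after these were seen. Some genes that these rules would name are not reported here. Protein sequences were not analysed here.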

Additional observations from a re-analysis of the deposited data

How the results depend on the processing

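Calls among the 10 members depended on the replicate block, the tool and the filter. Shares of all genes beside these counts are of genes called in either direction. For sgStat5 against control in the early gate, 1 member was called, beside 0.269% of all genes. There were 3 with DESeq2 (1.8%), 3 with no filter on low counts (0.652%), 3 with the replicate block (2.33%) and 0 on FPKM with limma (0.181%). In the late gate, 3 were called, beside 1.71% of all genes, against 7 with the replicate block (8.22%). The other alternatives that kept all 8 libraries called 3 to 4 members and 1.66% to 4.58% of all genes. Calls in this gate also varied with the library left out. For late against early in control cells, 0 members, beside 0.0145% of all genes, became 5 with DESeq2 (4.27%), 2 with no filter (0.474%) and 10 with the replicate block (10.9%). In sgStat5 cells, 2 members, beside 0.973% of all genes, became 10 with DESeq2 (12%), 10 with no filter (4.34%) and 10 with the replicate block (22.8%). There were 3 at a CPM of at least 5 (2.19%) and 3 on FPKM (1.23%). With 1 library left out there were 0 to 6, and the share of all genes called varied too. It was largest in the fit that called 6 members. The cause was not tested. The interaction called 0 members throughout.

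No member's log2 fold change reversed except where 1 library was left out. For sgStat5 in the early gate these fits gave -0.17 to 1.195 for Gbp4, -0.13 to 1.28 for Gbp6, -0.29 to 0.84 for Gbp8, -0.12 to 1.29 for Gbp10 and -0.27 to 1.08 for Gbp11. In the late gate they gave -0.23 to 1.47 for Gbp8 and -0.10 to 1.48 for Gbp11. For the interaction they gave -0.30 to 0.81 for Gbp2, -0.12 to 0.40 for Gbp7, -0.52 to 1.28 for Gbp4, -0.50 to 1.37 for Gbp6, -0.46 to 1.30 for Gbp8, -0.48 to 1.27 for Gbp9, -0.45 to 1.44 for Gbp10 and -0.60 to 1.22 for Gbp11. A group left with 1 library is assumed to vary like the others. The lowest member count in any library was 289.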
